A study of Mus musculus with 8 samples.

Results

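The 32 genes described here encode the machinery that folds secretory proteins in the endoplasmic reticulum (ER), the sensors that report unfolded protein in it, and the factors that return misfolded protein to the cytosol for destruction. They were chosen by name, with earlier results of these data known, and each is given by its probe of highest mean over the 8 arrays. Of the 32 genes, 29 had a named probe on the array and 24 had a probe above background on at least 4 arrays, out of 16593 genes with a named probe and 9146 with a tested probe in the series. The probes of Canx, Manf, Ern1, Derl1 and Derl3 were not above background on enough arrays to be tested, and Atf6, Dnajb11 and Sdf2l1 were not analysed here.

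The livers came from 4 CF mice, which carry the ΔF508 change in Cftr, the gene of the chloride channel affected in cystic fibrosis, and from 4 wild-type (WT) littermates. All 8 mice were 3-week-old C57BL/6 females. Weaning of both genotypes was at 21 days, to an enriched feed and, instead of water, a laxative drink of polyethylene glycol and electrolytes at reduced strength, and the mice were killed at 23 days. The labels name no litters, no pooling and no tissue-restricted driver of the mutation, and each array holds RNA of whole liver, so a difference in the number of cells of a type and a difference in RNA per cell cannot be told apart. Levels are the deposited log2 values of single-colour bead arrays, each mean is followed by its SD over 4 arrays (n = 4 in each genotype), and a difference is the CF mean less the WT mean on the log2 scale, with its standard error (SE) from limma. A gene was called when its adjusted p was under 0.05. The arrays are numbered CF 1 to CF 4 and WT 1 to WT 4 after the replicate numbers in the labels, which were not treated as pairs.

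Proteins that enter the secretory pathway are threaded into the ER lumen through the Sec61 channel and are held by the chaperones BiP and GRP94 or by the lectins calreticulin and calnexin while protein disulfide isomerases form and shuffle their disulfide bonds. Proteins that fail to fold are extracted and degraded by ER-associated degradation, in which the Sel1l and Hrd1 ubiquitin ligase complex has a central part. When unfolded protein builds up, the sensors IRE1, PERK and ATF6 start the unfolded protein response, and XBP1 and ATF6 raise chaperone and degradation genes through promoter sequences that include the ER stress response element (ERSE). The liver makes most plasma proteins and has an extensive ER, and the ΔF508 form of the channel is itself a known substrate of ER quality control in epithelial cells.

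The promoters were searched for the exact form of this element, which many but not all genes of the response carry. Promoter sequences of RefSeq on GRCm38.p6, 250 bases before to 50 bases after the start of each gene, were found for 26 of the 32 genes. Hyou1, Sil1, Sec61a1, Atf6, Derl1 and Manf had none. The exact ERSE, which is CCAAT, a spacer of 9 bases of any kind and CCACG on either strand, occurred in 9 of these 26 genes (34.6%) and in 37 of all 27025 genes in the table (0.137%), so that 24.3% of the genes that hold it are in the set. The set was chosen by name and includes known genes of this response, so a share above that of all genes follows from the choice. The 10 elements are printed 5′ to 3′ on their own strand, with CCAAT and CCACG in capitals and the spacer in lower case.
Hspa5, chr2:34772025-34772043, + strand: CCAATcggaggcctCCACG
Hsp90b1 nearer element, chr10:86705533-86705551, + strand: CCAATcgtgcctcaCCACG
Hsp90b1 farther element, chr10:86705638-86705656, - strand: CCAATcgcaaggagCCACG
Dnajc3, chr14:118937827-118937845, + strand: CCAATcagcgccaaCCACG
Calr, chr8:84847075-84847093, + strand: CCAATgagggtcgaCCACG
Canx, chr11:50325800-50325818, - strand: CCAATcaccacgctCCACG
Pdia6, chr12:17266491-17266509, + strand: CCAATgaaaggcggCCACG
Creld2, chr15:88819520-88819538, - strand: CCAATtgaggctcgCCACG
Syvn1, chr19:6046532-6046550, + strand: CCAATcggcggtagCCACG
Derl3, chr10:75893242-75893260, - strand: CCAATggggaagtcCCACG

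Of the 10 elements, 6 read in the direction of their gene and 4 in the opposite direction, and their nearest base lay between 26 bases (Syvn1) and 194 bases (Hsp90b1) before the start. A second element, ERSE-II, which is ATTGG, 1 base of any kind and CCACG on either strand, was found in Herpud1 at chr8:94386377-94386387 as ATTGGgCCACG and in Dnajb11, and in 12 genes of the table (0.0444%). The short sequence TGACGTGG, known as the UPRE, was in 0 of the 26 genes and in 193 genes of the table (0.714%). The C/EBP-ATF sequence TGATGCAAT, through which the PERK arm acts, was likewise in 0 of the 26 and in 60 genes of the table (0.222%). The CCACG part, which is contained in both ERSE and ERSE-II, was in 22 of the 26 genes and in 35.5% of all genes. These matches describe the letters in the window and do not show that a factor was bound.

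**Figure D1:**
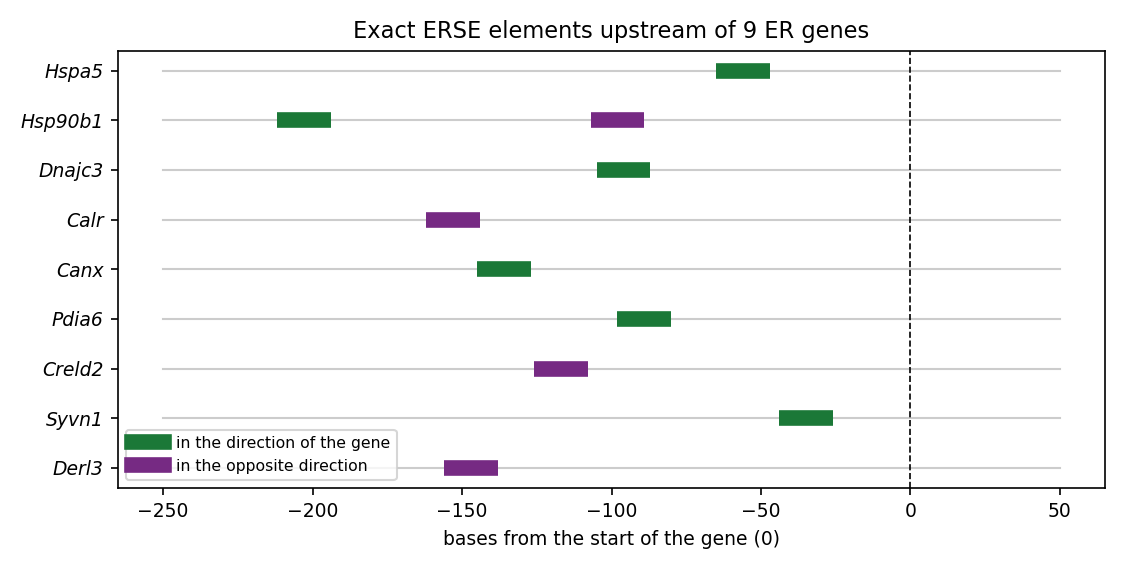
Position of the exact ERSE in the 9 genes that hold it, in bases from the start of the gene (0). Grey lines are the 300-base window and coloured bars are the 19-base elements, green where the element reads in the direction of the gene and purple where it reads in the opposite direction, with Hsp90b1 holding 1 of each.

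The 250 bases before the start are shown for 3 genes. Pdia6 has an exact ERSE and was lower in CF livers, and Hspa5 has an exact ERSE and was not called. Sel1l has no exact ERSE and was higher in CF livers. The exact ERSE is in capitals, and each sequence is read in the direction of its gene. Stretches that differ from the exact form were not searched for and are not marked.
Pdia6, chr12:17266339-17266588, + strand: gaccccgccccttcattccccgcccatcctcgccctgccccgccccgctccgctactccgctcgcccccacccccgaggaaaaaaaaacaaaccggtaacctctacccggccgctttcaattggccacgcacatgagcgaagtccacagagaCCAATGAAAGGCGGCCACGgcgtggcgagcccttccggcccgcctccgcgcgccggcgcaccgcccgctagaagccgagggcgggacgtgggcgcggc
Hspa5, chr2:34771840-34772089, + strand: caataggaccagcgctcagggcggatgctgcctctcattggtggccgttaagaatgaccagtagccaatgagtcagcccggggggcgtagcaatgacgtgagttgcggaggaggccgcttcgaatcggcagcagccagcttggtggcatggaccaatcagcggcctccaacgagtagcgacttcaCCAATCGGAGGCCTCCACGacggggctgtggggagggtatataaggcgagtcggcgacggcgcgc
Sel1l, chr12:91849158-91849407, - strand: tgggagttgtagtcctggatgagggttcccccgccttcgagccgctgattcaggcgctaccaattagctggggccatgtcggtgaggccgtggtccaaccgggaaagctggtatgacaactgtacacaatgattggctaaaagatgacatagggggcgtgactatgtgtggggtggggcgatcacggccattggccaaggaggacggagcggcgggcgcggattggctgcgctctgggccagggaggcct

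Few of the ER genes differed between genotypes. Pdia6, Hyou1 and Edem1 were lower in CF livers, by 1.68-fold, 1.34-fold and 1.24-fold, and Sel1l was higher by 1.44-fold, while the other 20 tested genes, among them the stress reporter Hspa5, did not pass the test. Over all genes tested, 19.8% were called, 11% higher and 8.79% lower in CF livers, and the 4 of 24 here are near that background. The differences were negative for 18 genes and positive for 6, with a median of -0.17, against 0.02 over all tested genes. Their median size without sign was 0.213, against 0.140 over all tested genes, and their median SE was 0.130, against 0.0888, so that the ER genes also varied more between livers of a genotype than the typical gene. CF and WT arrays did not overlap for 4 of the 24 genes, with CF above WT for Sel1l and CF below WT for Pdia6, Pdia4 and Edem1, while 24.4% of all tested genes did not overlap.

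**Figure D2:**
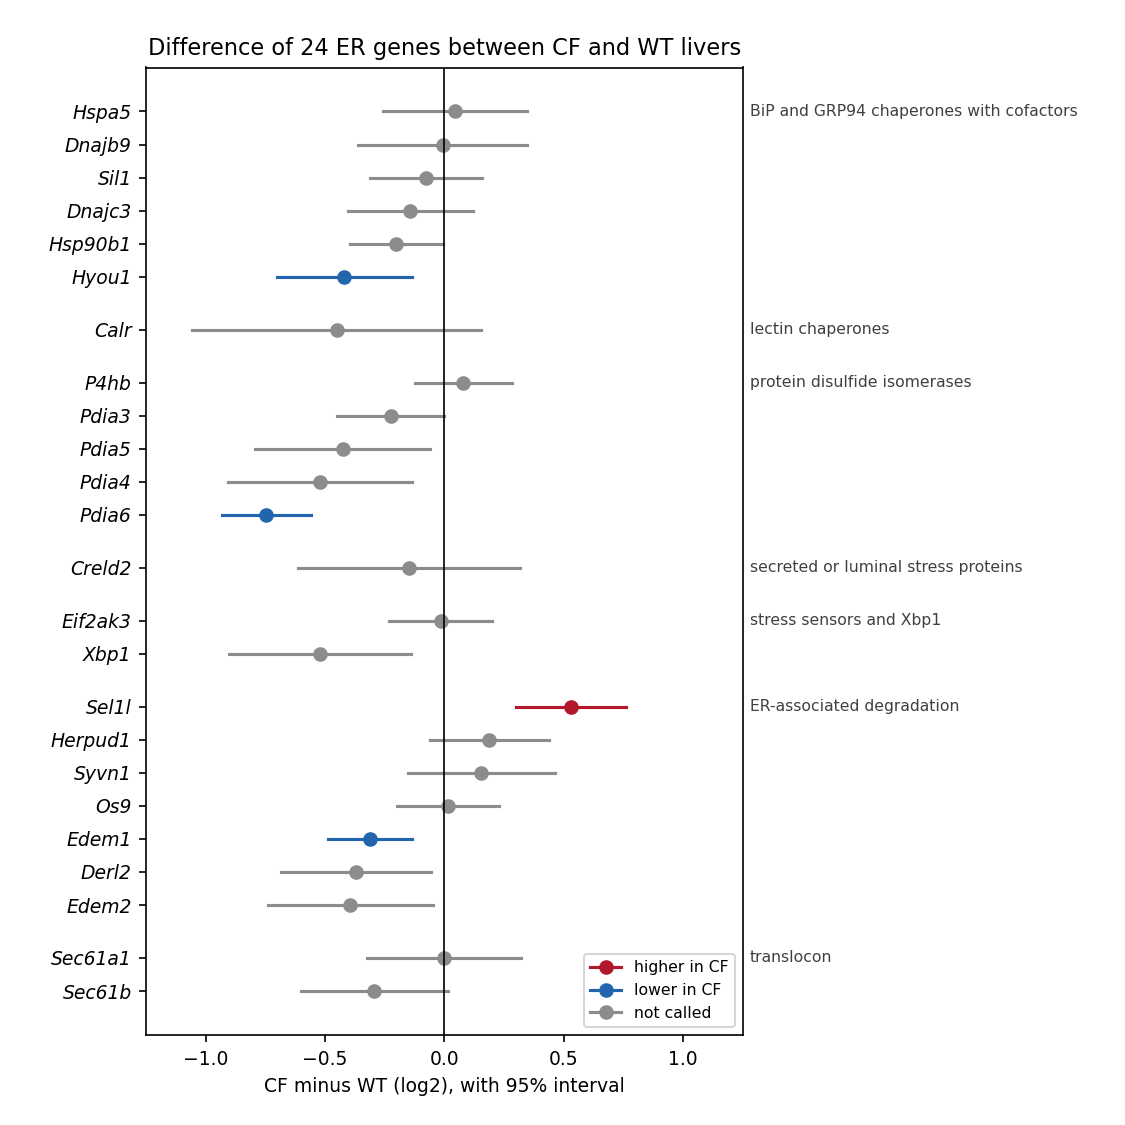
Difference of the 24 tested ER genes, CF minus WT on the log2 scale, grouped by role. Points are the fitted differences and lines the 95% confidence intervals, red for Sel1l (higher in CF), blue for Pdia6, Hyou1 and Edem1 (lower in CF) and grey for the 20 genes that were not called.

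The general chaperones of the ER lumen and their cofactors gave 1 call among 6 tested genes, near the 19.8% of all tested genes called. Hspa5 encodes BiP, the Hsp70 of the ER and the usual reporter of ER stress. Its levels were 7.53, 7.90, 7.72 and 7.78 in CF 1 to CF 4, and 7.55, 7.45, 7.69 and 8.07 in WT 1 to WT 4. The groups overlapped throughout, with the highest and the lowest array both in WT. The difference was 0.04 (SE 0.13, 95% confidence interval -0.26 to 0.34, adjusted p = 0.862), an interval that leaves room for a change of either sign. The gene had 1 probe, with levels not far above the background level of 6.47, so a difference may be compressed. Hsp90b1, which encodes GRP94, the Hsp90 of the ER, averaged 12.48 ± 0.13 in CF livers and 12.68 ± 0.11 in WT livers, with a difference of -0.20 (SE 0.09, adjusted p = 0.138).

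Hyou1 encodes the large Hsp70-related protein that exchanges nucleotide on BiP, and it was lower in CF livers. Its levels were 6.99, 7.49, 7.04 and 6.84 in CF 1 to CF 4, against 7.59, 7.54, 7.46 and 7.44 in WT 1 to WT 4. CF 2 lay within the WT range, and the other 3 CF livers lay below it. The difference was -0.42 (SE 0.13, adjusted p = 0.0452). The call was lost in 7 of the 8 fits that left out 1 liver, all except the one without CF 2, with an adjusted p between 0.0737 and 0.104 in those 7. Without CF 2 the difference was -0.55 (adjusted p = 0.00312), and without CF 1 and WT 3 together it was -0.40 (adjusted p = 0.170).

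The cofactors of BiP were not called. Sil1, a second nucleotide exchange factor, differed by -0.08 (SE 0.10). Dnajb9, a J-domain protein induced by ER stress that recruits BiP to its clients, differed by -0.01 (SE 0.16), and Dnajc3, another J-domain cofactor, by -0.14 (SE 0.12). For Dnajb9 a single liver of each genotype stood high, with 10.12, 10.59, 10.10 and 10.14 in CF 1 to CF 4 and 10.04, 10.07, 10.66 and 10.22 in WT 1 to WT 4.

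Of the lectin chaperones, which hold glycoproteins during folding, Calr (calreticulin) had levels of 9.20, 9.23, 9.46 and 8.12 in CF 1 to CF 4, and 9.37, 9.08, 9.68 and 9.68 in WT 1 to WT 4. CF 4 was the low array, and the other CF livers lay within the WT range. The difference of -0.45 had an SE of 0.27, the largest among the 24 genes, and an adjusted p of 0.281, and without CF 4 it was -0.16. The probe for Canx (calnexin) was under background on all 8 arrays and gives no measure of the gene.

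The protein disulfide isomerases held the clearest difference of the set. Pdia6, an isomerase that works with BiP, had levels of 7.62, 7.94, 7.69 and 7.74 in CF 1 to CF 4, against 8.52, 8.38, 8.55 and 8.52 in WT 1 to WT 4. Every CF liver lay below every WT liver. The means were 7.75 ± 0.14 and 8.49 ± 0.08, and the difference was -0.75 (SE 0.08, 95% confidence interval -0.93 to -0.56, adjusted p = 0.000601). The call held in the main fit and under all 17 alternatives run, with differences between -0.81 and -0.70 when each liver was left out in turn, and a difference of -0.69 (adjusted p = 0.00974) without CF 1 and WT 3. Pdia6 was the only one of the ER genes called under every setting.

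The other 4 isomerases were not called by their brightest probes. Pdia4, an isomerase with an additional catalytic domain, had 10.34, 10.38, 9.98 and 9.53 in CF 1 to CF 4, against 10.53, 10.47, 10.73 and 10.59 in WT 1 to WT 4. All CF livers lay below all WT livers, but the CF livers spread over 0.85 and the WT livers over 0.26. The difference was -0.52 (SE 0.17, adjusted p = 0.0619), and it passed without CF 2 (-0.63, adjusted p = 0.0399). It also passed without CF 1, at an adjusted p just under the threshold.

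Pdia5 gave 9.57, 10.05, 9.34 and 9.16 in CF 1 to CF 4, and 9.86, 9.96, 10.03 and 9.98 in WT 1 to WT 4, so that CF 2 was above every WT liver and the other CF livers were below them. Its difference was -0.43 (SE 0.16, adjusted p = 0.102). A second, dimmer probe for Pdia5 was lower in CF livers, with no overlap and a difference of -0.52 (adjusted p = 0.0285), and the dimmest differed by -0.12 (adjusted p = 0.450). Pdia3, which folds glycoproteins together with calreticulin and calnexin, differed by -0.23 (SE 0.10, adjusted p = 0.150). P4hb, the founding isomerase, which also serves as a subunit of prolyl 4-hydroxylase and of the microsomal triglyceride transfer protein, averaged 13.63 ± 0.17 in CF livers and 13.55 ± 0.08 in WT livers, a difference of 0.08 (SE 0.09, adjusted p = 0.593).

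**Figure D3:**
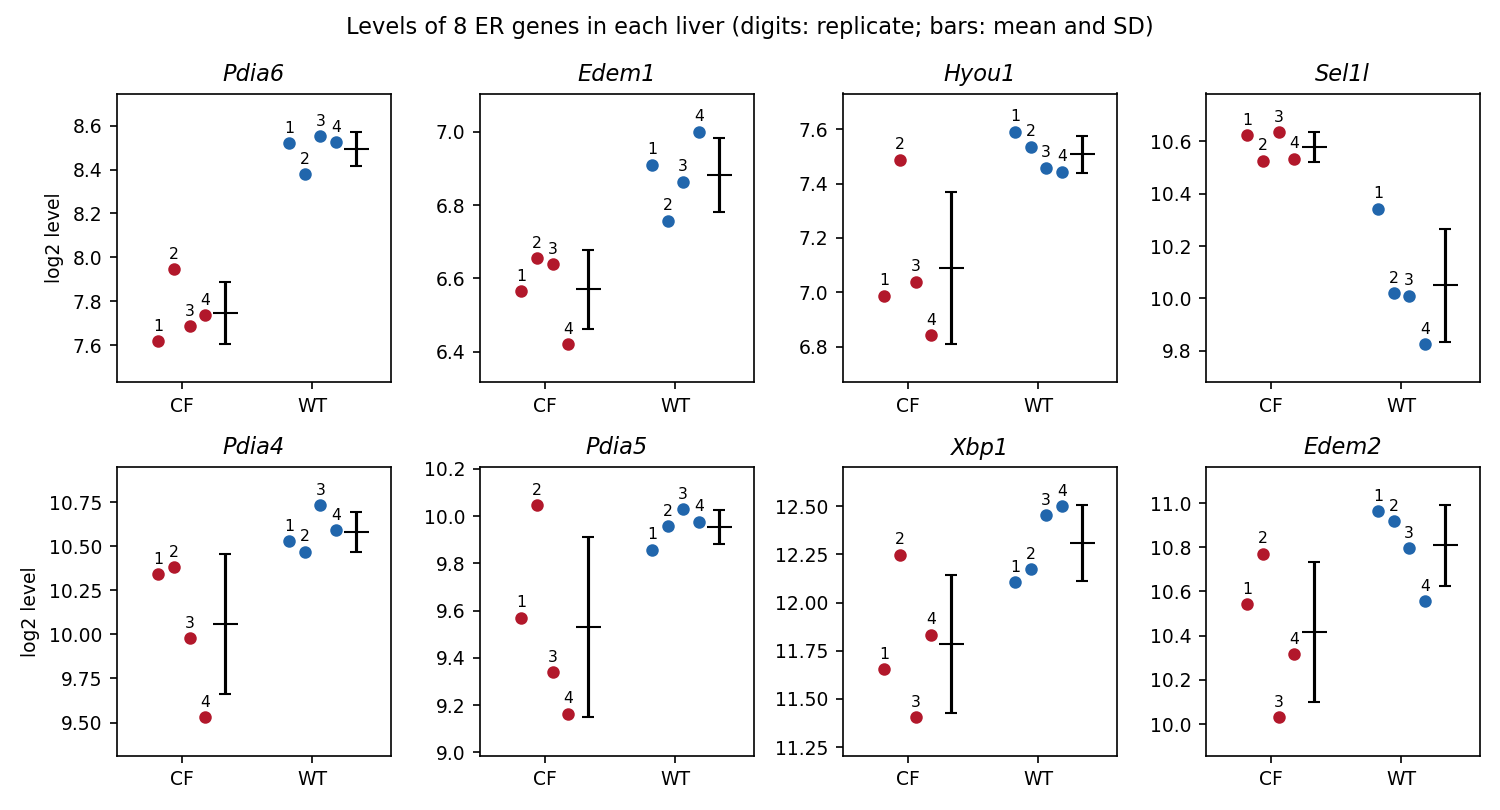
Log2 level of 8 ER genes in each liver, CF left and WT right, with the replicate number beside each point and the mean and SD of the 4 arrays as bars (axes differ between panels and do not start at 0). All CF livers lie below all WT livers for Pdia6, Edem1 and Pdia4 and above them for Sel1l, while for Hyou1, Pdia5, Xbp1 and Edem2 CF 2 lies within or above the WT range.

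Creld2, a luminal and secreted protein induced by ER stress, had 8.87, 9.71, 8.82 and 8.69 in CF 1 to CF 4, and 9.40, 9.00, 9.26 and 9.01 in WT 1 to WT 4. CF 2 was the highest of all 8 arrays and the other 3 CF livers were below all WT livers. The difference was -0.15 (SE 0.21, adjusted p = 0.674), and a second probe gave -0.06. Without CF 2 the difference was -0.38 (adjusted p = 0.0573). Manf, another secreted stress protein, was under background on all 8 arrays.

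Among the sensors, Eif2ak3, which encodes PERK, the kinase that slows translation under ER stress, differed by -0.02 (SE 0.10, 95% confidence interval -0.23 to 0.20, adjusted p = 0.934). The probe for Ern1, which encodes IRE1α, was under background on all 8 arrays. Xbp1, whose mRNA IRE1 splices into the form that encodes an active transcription factor, had levels of 11.65, 12.25, 11.40 and 11.83 in CF 1 to CF 4, and 12.10, 12.17, 12.45 and 12.50 in WT 1 to WT 4. CF 2 lay within the WT range and the other 3 CF livers below it. The difference was -0.52 (SE 0.17, adjusted p = 0.0597), and without CF 2 it was -0.68 (adjusted p = 0.0128). Splicing was not measured, since the annotation does not say which form the probe reads.

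Of the 7 tested degradation genes, 1 was higher and 1 lower in CF livers, near the 11% and 8.79% of all tested genes. Sel1l encodes the membrane adaptor that holds the Hrd1 ubiquitin ligase complex together. Its levels were 10.62, 10.53, 10.64 and 10.53 in CF 1 to CF 4, against 10.34, 10.02, 10.01 and 9.83 in WT 1 to WT 4. Every CF liver was above every WT liver, and the 4 CF livers lay within 0.11 of each other. The difference was 0.53 (SE 0.10, 95% confidence interval 0.30 to 0.76, adjusted p = 0.00768), and it passed in each of the 8 fits that left out 1 liver.

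A second probe for Sel1l, designed on another transcript of the gene, did not show this difference. It had means of 8.20 ± 0.11 in CF livers and 8.26 ± 0.20 in WT livers, a difference of -0.06 (SE 0.10, adjusted p = 0.765), and the remaining probe was under background. With the mean of the tested probes in place of the brightest, the difference was 0.24 (adjusted p = 0.0590), and without CF 1 and WT 3 the brightest probe gave 0.50 (adjusted p = 0.0613). The higher level was thus seen with 1 of the 2 tested probes. Syvn1, which encodes the ligase Hrd1 itself, differed by 0.15 (SE 0.14, adjusted p = 0.476), with 10.92, 11.45, 10.89 and 11.19 in CF 1 to CF 4 and 11.17, 10.80, 11.03 and 10.82 in WT 1 to WT 4. Herpud1, a stress-induced membrane protein of the same complex, averaged 13.10 ± 0.18 in CF livers and 12.92 ± 0.17 in WT livers, a difference of 0.19 (SE 0.11, adjusted p = 0.277), and its second probe gave 0.24 (adjusted p = 0.116).

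Edem1 and Edem2 act on the mannose residues that mark glycoproteins for degradation. Edem1 had 6.56, 6.65, 6.64 and 6.42 in CF 1 to CF 4, against 6.91, 6.76, 6.86 and 7.0 in WT 1 to WT 4. Every CF liver was below every WT liver, and the levels were near the background level of 6.47, with 3 of the 4 CF arrays above it. The difference was -0.31 (SE 0.08, adjusted p = 0.0233). The call was lost in 5 of the 8 fits that left out 1 liver, those without CF 1, CF 4, WT 1, WT 3 or WT 4, in which the adjusted p reached at most 0.0615, and without CF 1 and WT 3 together the difference was -0.32 (adjusted p = 0.111).

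Edem2 had 10.54, 10.77, 10.03 and 10.31 in CF 1 to CF 4, and 10.96, 10.92, 10.80 and 10.56 in WT 1 to WT 4, with CF 2 again inside the WT range. The difference was -0.39 (SE 0.15, adjusted p = 0.110). All 4 of its probes had negative differences, between -0.46 and -0.19, and the second brightest passed (-0.46, adjusted p = 0.0347). The mean of its tested probes passed as well (-0.35, adjusted p = 0.0354). Derl2, a derlin of the channel through which proteins leave the ER, had 9.04, 9.36, 8.70 and 8.95 in CF 1 to CF 4, and 9.11, 9.48, 9.46 and 9.46 in WT 1 to WT 4, and the difference of -0.37 was not called (SE 0.14, adjusted p = 0.0979). A second tested probe for Derl2 differed by -0.16 (adjusted p = 0.502), and the mean of the tested probes by -0.26 (adjusted p = 0.231). Os9, a lectin that delivers glycoproteins to the Sel1l complex, differed by 0.01 (SE 0.10). The related derlins Derl1 and Derl3 were above background on 0 arrays and on 1 CF array.

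Neither subunit of the Sec61 channel measured here was called. Sec61a1, which forms the pore, differed by -0.00 (SE 0.14, 95% confidence interval -0.33 to 0.32). Sec61b, a small accessory subunit, averaged 10.06 ± 0.19 in CF livers and 10.36 ± 0.25 in WT livers, a difference of -0.29 (SE 0.14, adjusted p = 0.172). Its second probe gave -0.43 (adjusted p = 0.0662).

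One CF liver recurred in these comparisons. CF 2 was the highest of the CF livers for 17 of the 24 ER genes, whereas it was the highest CF liver for 22.6% of all tested genes. CF 4 was the highest CF liver for 0 of the 24 genes and the lowest for 10, and CF 3 was also the lowest for 10, while CF 4 was the highest CF liver for 34.3% of all tested genes. The median deviation of the 24 genes from their CF mean was 0.20 in CF 2, -0.10 in CF 3, -0.10 in CF 4 and close to 0 in CF 1. In WT livers the same median lay between -0.12 (WT 2) and 0.08 (WT 3).

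Leaving out CF 2 changed which ER genes passed. Without it 8 genes were lower in CF livers, namely Pdia4, Pdia5, Pdia6, Hyou1, Xbp1, Edem1, Edem2 and Derl2, and Sel1l was higher, and the median difference was -0.22. Each of the other 7 fits that left out 1 liver called 1 or 2 lower genes, and each of the 8 called Sel1l and Pdia6. Of 12923 tested probes, 2056 were called without CF 2, 952 of them lower. With all 8 arrays 2474 (19.1%) were called, 1137 of them lower, so calls over all probes did not rise with those of the ER genes. CF 2 stood out as the highest CF liver for most of these same ER genes, so leaving it out lowers their CF means. The larger count of lower ER genes is therefore no separate result.

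**Figure D4:**
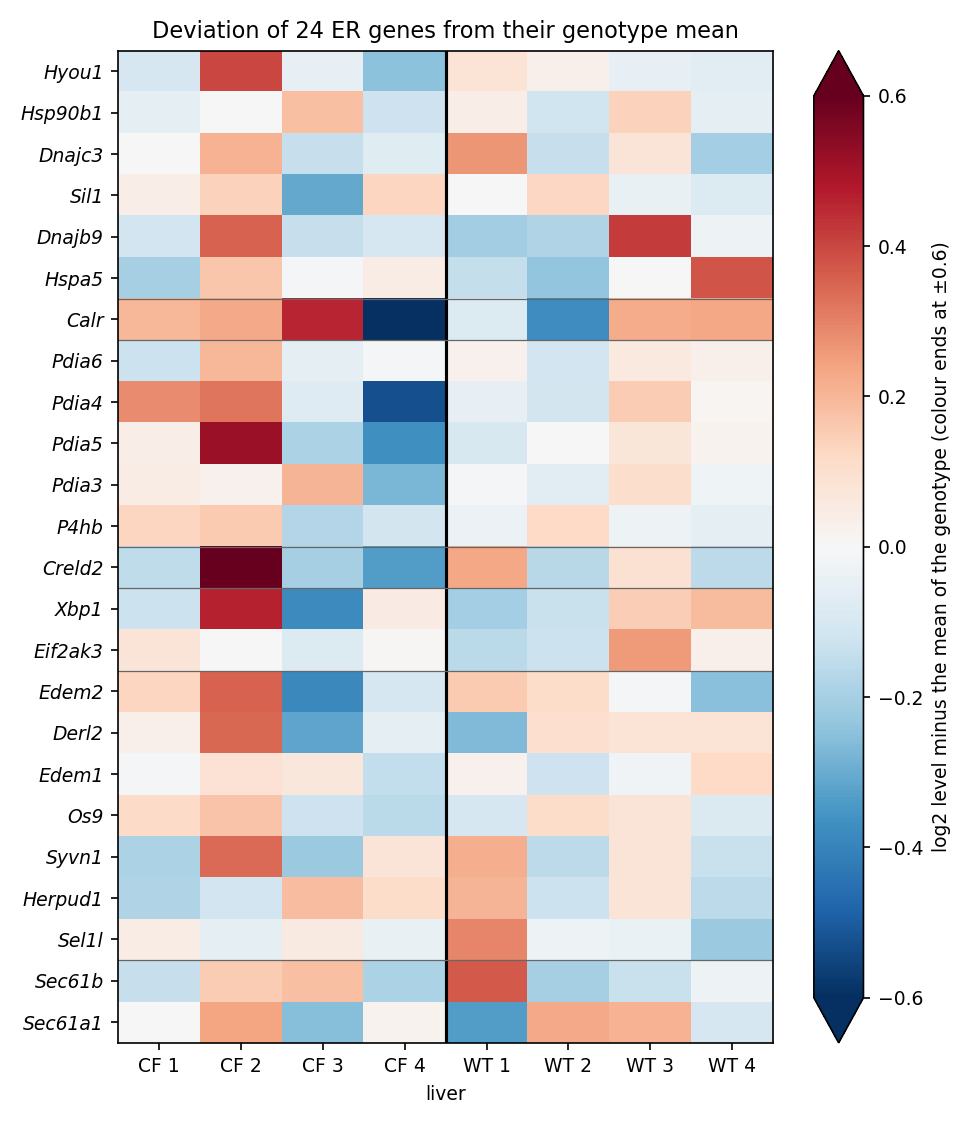
Deviation of each of the 24 ER genes from the mean of its own genotype in each liver, on the log2 scale, with CF 1 to CF 4 left and WT 1 to WT 4 right of the vertical line and genes grouped by role between the horizontal lines. The CF 2 column is mostly red, with a median of 0.20, and the colour scale ends at 0.6 on either side.

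**Figure D5:**
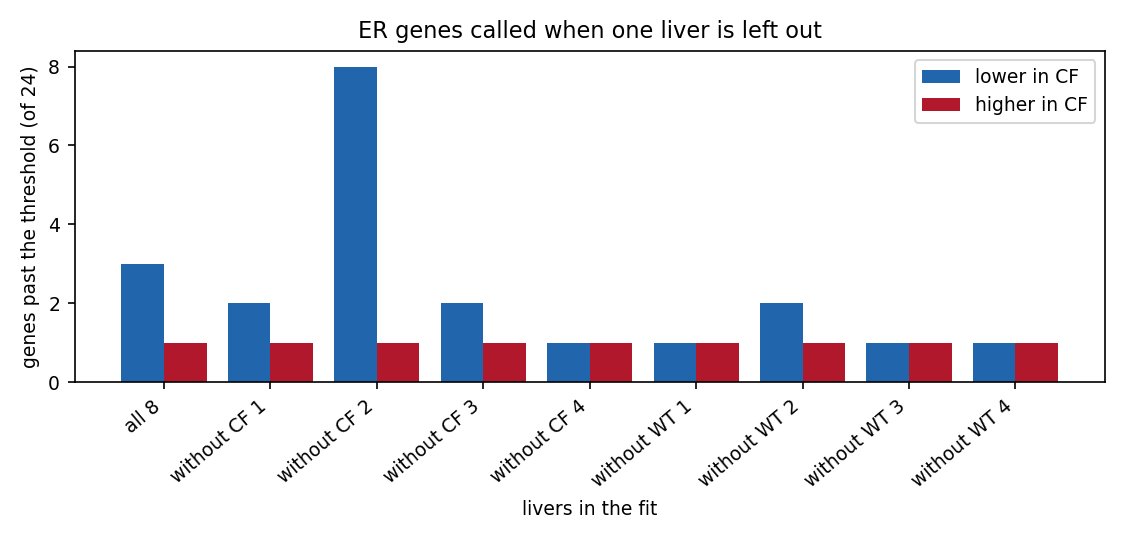
Number of the 24 tested ER genes called with all 8 livers and with each liver left out in turn, blue for lower and red for higher in CF. The count of lower genes is 3 with all livers, 8 without CF 2 and 1 or 2 without any other single liver, and 1 gene is higher in each fit.

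Markers of other cells and of neighbouring tissue were set beside these results, and their calls beside the 19.8% of all tested genes called. Hepatocyte markers were present on every array, with 0 of 9 tested markers called and a mean log2 level of 11.83 to 11.95 in CF livers and 11.72 to 11.90 in WT livers. Exocrine pancreas markers were high on 1 array of each genotype, with a mean level of 11.84, 9.71, 8.03 and 7.16 in CF 1 to CF 4 and 7.81, 8.76, 12.03 and 6.81 in WT 1 to WT 4, and 0 of 18 tested markers were called. CF 1 and WT 3 also stood apart from the rest on the second principal component. With the pancreas level as a covariate the ER genes called were again Pdia6, Edem1 and Sel1l, with Pdia4 in place of Hyou1. Without CF 1 and WT 3, Pdia6 alone was called.

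The marker calls below stand beside the 11% of all tested genes called higher and the 8.79% called lower in CF livers. Neutrophil markers differed with genotype. Of the 7 tested, 5 were higher in CF livers (S100a8, S100a9, Mpo, Camp and Ltf), at a mean level of 7.56 to 8.11 in CF livers and 6.76 to 7.04 in WT livers, with Mpo and Camp under background on all 4 WT arrays, so that these entered the test only through the CF arrays. Of the 5 markers above background on all 8 arrays, 3 were higher. Among markers of the other cell types, 1 of 4 of macrophages (Marco) and 1 of 6 of endothelium (Lyve1) were higher in CF livers. For stellate cells 1 of 7 (Lrat) was lower. A single call in a list this short cannot be told from the shares over all tested genes. Of the 4 macrophage markers, 2 had positive and 2 negative differences. Without CF 1 and WT 3 together, 0 macrophage markers were called higher and 1 lower. Marco lost its call without CF 1, CF 3, CF 4, WT 3 or WT 4 and Lrat without CF 1, CF 3, CF 4 or WT 4, while the endothelial list held at least 1 higher call with each liver left out in turn. For B and plasma cells, whose secretory load gives them a large ER, 0 of 4 tested markers were called, at a mean level of 7.17 to 7.33 in CF livers and 7.04 to 7.27 in WT livers, and the plasma cell genes Jchain and Pou2af1 were under background. For bile duct cells 0 of 3 and for intestinal epithelium 0 of 2 tested markers were called. The probe for Cftr lay under background on all 8 arrays and does not check the genotype labels. The part of these cell types in the ER gene differences was not tested.

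The rest of the same machinery was counted from other lists. Over all tested genes 19.8% were called, 11% higher and 8.79% lower in CF livers, and none of these ER lists exceeded 19.8%. Of 30 other tested folding and redox factors, 2 were higher and 3 lower in CF livers, with a median difference of -0.07. Tmx4, a thioredoxin-related protein of the ER membrane, rose by 0.77 (SE 0.13, adjusted p = 0.00374), to 10.50, 10.50, 11.09 and 10.79 in CF 1 to CF 4, against 10.05, 9.91, 9.94 and 9.90 in WT 1 to WT 4. All CF livers were above all WT livers, and the call held with each liver left out in turn. The other calls were Txndc11 (higher), Mogs, Sdf2 and Ero1b (lower). Txndc11 differed by 0.36, Mogs, the glucosidase that starts the trimming of N-glycans, by -0.37 and Sdf2 by -0.28. When 1 liver was left out, Txndc11 kept its call without CF 3, WT 1 or WT 3, Mogs without CF 4 or WT 4 and Sdf2 without CF 1, CF 2 or WT 1, and each lost it without any other liver. With the mean of all tested probes, Txndc11 differed by 0.18 (adjusted p = 0.101) and Sdf2 by -0.30 (adjusted p = 0.0563), and neither was called. Ero1b, the oxidase that recharges protein disulfide isomerases, had a difference of -0.52 (SE 0.15, adjusted p = 0.0444) with overlapping groups, and kept its call only without CF 2 when 1 liver was left out. It was named after its values were seen, because its promoter also holds an exact ERSE.

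Among 28 other tested degradation factors, 2 were higher and 2 lower, with a median difference of 0.05. Get4, part of a cytosolic complex that receives membrane proteins and ER-extracted chains, was higher in CF livers by 0.84 (SE 0.08, adjusted p = 0.000364), with means of 10.74 ± 0.12 in CF livers and 9.90 ± 0.11 in WT livers. Rnf5, a membrane-bound ubiquitin ligase known in human cells for its action on ΔF508 CFTR, had 9.53, 9.75, 9.67 and 9.92 in CF 1 to CF 4, against 10.29, 10.36, 10.23 and 10.26 in WT 1 to WT 4. Every CF liver was below every WT liver, and the difference was -0.57 (SE 0.09, adjusted p = 0.00244). Man1b1, the mannosidase that trims glycans on the way to degradation, was lower, with a difference of -0.37 (SE 0.07, adjusted p = 0.00884). These 3 calls held with each liver left out in turn, whereas Selenos, a selenoprotein of the derlin complex (0.24, adjusted p = 0.0342), kept its call only without CF 1 or WT 1.

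Of 27 tested genes of translocation, signal peptide cleavage and N-glycan transfer, 0 were higher and 4 lower, with a median difference of -0.04. Over all tested genes 11% were higher and 8.79% lower. Stt3a, a catalytic subunit of the oligosaccharyltransferase that attaches N-glycans, averaged 7.14 ± 0.14 in CF livers and 7.62 ± 0.09 in WT livers, a difference of -0.48 (SE 0.08, adjusted p = 0.00436) that held with each liver left out. Sec63, Ddost and Ostc were also lower, with differences of -0.27, -0.25 and -0.29, and of the 8 fits that left out 1 liver all 3 passed without CF 2, Sec63 also without WT 4, and none in any other. Of 28 tested ER-to-Golgi transport genes, 1 was higher and 2 lower, with a median close to 0. Tmed4, a cargo receptor, was higher by 0.51 (SE 0.09, adjusted p = 0.00373), but the mean of its tested probes differed by 0.27 (adjusted p = 0.266). The lower ones were Lman2 (-0.34) and Ergic1 (-0.37), of which Lman2 lost its call without CF 3, WT 3 or WT 4, and Ergic1 kept it only without CF 1 or CF 4.

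The arms of the response run by PERK and ATF6 gave 1 call among 19 tested genes, a share under the 19.8% of all tested genes. It was Bcl2l11, which encodes the pro-apoptotic protein BIM, with 8.22, 8.41, 8.20 and 7.77 in CF 1 to CF 4, against 7.32, 7.23, 7.33 and 7.42 in WT 1 to WT 4. The difference was 0.82 (SE 0.12, adjusted p = 0.00237), with every CF liver above every WT liver, and it passed with each liver left out in turn, while the mean of its tested probes differed by 0.51 (adjusted p = 0.00412). Ddit3, which encodes CHOP, the transcription factor of prolonged ER stress, had 7.67, 7.47, 7.26 and 7.49 in CF 1 to CF 4, and 7.21, 7.21, 7.23 and 7.19 in WT 1 to WT 4. All CF livers lay above all WT livers, but CF 3 by little, and the difference of 0.26 did not pass (SE 0.09, adjusted p = 0.0608). It passed without CF 3 (adjusted p = 0.0187), with the mean of its tested probes (0.35, adjusted p = 0.0396) and with array weights (0.27, adjusted p = 0.0394), and with no other alternative. Atf4, the transcription factor whose translation rises when PERK is active, differed by -0.14 (SE 0.21, adjusted p = 0.696), with CF 4 low at 8.12.

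Chaperones of other compartments were counted for comparison, beside the 11% of all tested genes called higher and the 8.79% called lower in CF livers. In the cytosol 2 of 16 tested chaperone genes were higher and 4 lower in CF livers, with a median difference of -0.22. Hsph1, an Hsp110 chaperone, was lower, with a difference of -0.84 (SE 0.11, adjusted p = 0.00141). Stip1, which links Hsp70 to Hsp90, was lower, with a difference of -0.59 (SE 0.08, adjusted p = 0.00122), and St13, an Hsp70 cofactor, was lower, with a difference of -0.58 (SE 0.12, adjusted p = 0.0100). Dnaja2, an Hsp40, was higher by 0.67 (SE 0.10, adjusted p = 0.00250). In mitochondria 3 of 9 tested genes were higher and 1 lower, with a median difference of 0.12. The higher ones were the Hsp70 Hspa9 (0.29), its nucleotide exchange factor Grpel1 (0.66) and its J-domain cofactor Dnaja3 (0.60), at adjusted p values of 0.0147, 0.00225 and 0.00592, and the lower one was the protease Yme1l1 (-0.33, adjusted p = 0.0275), whose call was lost without CF 1, CF 3, WT 2, WT 3 or WT 4. Without CF 1 and WT 3 together, St13 (adjusted p = 0.0758) and Hspa9 (adjusted p = 0.0870) were not called. Differences between these lists and the ER genes were not tested.

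The ER genes with and without an exact ERSE were set side by side, with no test. Their calls stand beside the 11% of all tested genes called higher and the 8.79% called lower in CF livers. Of the 9 genes with the element printed above, 7 were tested, 0 were higher and 1, Pdia6, was lower, with a median difference of -0.15 and values between -0.75 and 0.15. Of 14 tested ER genes whose promoter holds no exact ERSE, 1 was higher (Sel1l) and 1 lower (Edem1), with a median of -0.26. Herpud1, which holds an ERSE-II, is among these 14. Hyou1, which was called lower, Sil1 and Sec61a1 had no promoter sequence and are in neither group. Over all 37 genes with the element, 13 were tested, 1 was higher (Acnat2, by 0.90, adjusted p = 0.00245) and 2 were lower (Pdia6 and Ero1b), with a median of -0.04. Pdia6 and Hspa5 hold the element 80 and 47 bases before their starts, in the same direction, and differed by -0.75 and 0.04 between CF and WT livers.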

How the data were processed

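Whole-liver RNA was amplified, labelled and read on Illumina bead arrays, per the labels' protocols. The submitters' processing notes name GenomeStudio, with no version or settings. The deposited log2 values, 25697 probes on 8 arrays, had been quantile-normalized by the authors, since the sorted arrays are equal to within 0.000351. Such scaling hides a change shared by most transcripts, and whether a background was subtracted is not given in the sources used here, so differences near background may be compressed. A scanner table with 32 per-sample columns, named by chip position, could not be tied to samples and was not used.

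The background level, 6.47, was set from the mode (6.18) and the spread below it (0.173), and a probe entered the test if it exceeded that level on 4 or more arrays, which left 12923. The two-sided test was that of limma 3.58.1 (R 4.3.3), with genotype as the only term, Benjamini-Hochberg adjustment over all tested probes and a threshold of 0.05, and it was tried on simulated data first. Gene names are those of the platform annotation, and a gene is given by its probe of highest mean, with older symbols in the lists updated through RefSeq names. The members and lists were chosen with earlier results of these data known. Named genes are the 32 members, up to 4 called genes of each other list in order of adjusted p, Ddit3, Atf4, Ero1a (not analysed here) and Cftr, while Ero1b, Acnat2 and the called cell type markers were named after their values were seen. Nothing says that replicates are more than separate samples of a genotype, so p-values measure the spread between these samples. Equal replicate numbers were not treated as pairs, because no label pairs them. The deviations of equal-numbered samples correlated at -0.33, 0.06, -0.29 and 0.09. Precision is limited by the number of arrays. Motifs were searched in RefSeq promoters with Python 3.11.15.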

Additional observations from a re-analysis of the deposited data

Results flagged for a closer look

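In 7 of 104 groups of 4 arrays, over 52 genes named in the text, a single liver stood far from the other 3 of its genotype, where chance alone gives about 1 in 20 groups. Dnajb9 in CF 2 was at 10.59, against 10.10 to 10.14 in the other CF livers. P4hb in WT 2 was at 13.67, against 13.50 to 13.52 in the other WT livers, and Derl2 in WT 1 was at 9.11, against 9.46 to 9.48. Outside the 32 ER genes, CF 4 was high for Dnaja2 (9.22, against 8.88 to 8.92 in the other CF livers) and for St13 (8.41, against 7.90 to 7.91), and low for Atf4 (8.12, against 8.91 to 8.95). Grpel1 in WT 2 was at 10.83, against 10.54 to 10.56 in the other WT livers.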

How the results depend on the processing

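Of the differences of the 24 ER genes under all alternatives run, 354 kept direction and side of the threshold, 21 lost the call, 10 gained one and 22 changed sign. For the other named genes the counts were 372, 100, 3 and 1. The sign changes were in Os9, Dnajb9, Hspa5, Sil1, Eif2ak3, Sec61a1 and Atf4, none of them called under any alternative. With each liver left out in turn the differences were -0.043 to 0.068 for Os9, -0.13 to 0.13 for Dnajb9, -0.034 to 0.17 for Hspa5, -0.12 to 0.025 for Sil1, -0.068 to 0.070 for Eif2ak3, -0.11 to 0.083 for Sec61a1 and -0.25 to 0.063 for Atf4. Os9 was at -0.030 with cyclic loess and -0.0031 with the pancreas covariate, and Dnajb9 was at 0.17, Eif2ak3 at 0.044 and Sec61a1 at 0.067 without CF 1 and WT 3. With all arrays 2474 probes were called. That count was 1060 without CF 1 and WT 3 and 1612 to 2090 with each liver left out in turn, lowest without WT 3. Called lower were 3 ER genes with all arrays, 1 without CF 1 and WT 3, and 1 to 8 with each liver left out, 8 without CF 2 and 1 without CF 4, WT 1, WT 3 or WT 4. The mean of all tested probes of a gene called 4 lower, with Edem2 added. Called higher was 1 ER gene with all arrays and with each liver left out, 0 without CF 1 and WT 3, and 0 with the mean of all tested probes of a gene. The median difference of the ER genes was -0.22 to -0.13 with each liver left out. A replicate block called 1440 probes, 1 ER gene lower (Pdia6) and 1 higher (Sel1l). Under that block Hyou1 (adjusted p = 0.0615) and Edem1 (adjusted p = 0.0884) lost their calls. In 0 of 4 cases did a liver correlate best with its own number. The highest correlation was 0.586, between CF 1 and WT 3, the livers with the highest pancreas marker level. These correlations cannot decide whether equal numbers share a litter or batch, since the pancreas signal enters them and the labels name no litters. Array weights gave Xbp1 in place of Hyou1, and a further cyclic loess step added Xbp1 and left 47.5% of the called probes higher in CF, against 54.0% without that step. The causes of these shifts were not tested. Genes near background, such as Edem1, and the 5 genes under it are limited by signal over background. To a lesser degree the same may hold for Hyou1 and Hspa5.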
